A study of Mus musculus with 36 samples.

Results

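Broad intronic DNase hypersensitive sites (DHS) are wide stretches of open chromatin inside gene bodies. A DHS was counted here if it was at least 450 bp wide, lay wholly inside an annotated gene, overlapped no exon and was more than 1000 bp from every transcription start site (TSS) of the GENCODE vM21 basic annotation of the mouse genome build mm10. Of the 52788 DHS measured, 7663 met these conditions, which is 14.5%. The choice used position and width only, not the level of the signal.

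DNase I cuts DNA where nucleosomes are displaced, so a DHS marks a promoter, an enhancer or another bound regulatory element. In B cell precursors many such elements lie in introns, where factors such as Ebf1, E proteins, Pax5, Runx1, Foxo1, PU.1 and Ikaros bind. Ikaros, encoded by Ikzf1, is a zinc finger protein that recruits the NuRD and SWI/SNF remodelling complexes. It is known for driving pre-B cells out of the cell cycle and on to the next stage.

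The 36 libraries came from B3, a mouse pre-B lymphocyte line. The Ikaros line carried a retroviral (MSCV) vector that encodes haemagglutinin-tagged wild type Ikaros fused to the hormone-binding domain of the estrogen receptor (ERt2), followed by an IRES and GFP. The Control line carried the vector without Ikaros. Each line was sampled at 0, 2, 6, 12, 18 and 24 h with 3 replicates, numbered 4, 5 and 6, that the labels place in batches 11, 12 and 13. The labels name 4-hydroxytamoxifen (4-OHT) at 0.5 uM for all samples of both lines, while the study's methods state that cells for 0 h received none and were obtained separately. The drug and the separate collection therefore cannot be told apart in a comparison with 0 h. Both lines are transduced derivatives of 1 cell line, so the replicates are repeated time courses of the same cells.

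A level is given on the log2 scale of normalised read density (RPKM type), where a difference of 1 is a factor of 2. Every value is a mean over 3 libraries unless said otherwise. The study's methods state a minimum depth for the libraries, but the reads behind each value are not in the values used here, so precision rests on the replicates. Among promoters, DHS were found at 11 of 14 pre-B genes, with Rag2 and Dntt among those lacking one, against 3 of 10 T cell, 1 of 8 myeloid and 1 of 5 erythroid genes.

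The sequences below are the central 300 bp of 8 members on which the later results turn, with the GRCm38 (mm10) plus strand printed 5′ to 3′ from the RefSeq assembly. Capitals mark matches to the Ikaros core TGGGAA or the Runx motif TGTGGT on either strand, because Ikaros is the induced factor and Runx was the motif found most often among members higher in the Ikaros line. The members are in Tmtc1 at chr6:148344835-148345344 and chr6:148341737-148342239, Fli1 at chr9:32425408-32425932, Foxo1 at chr3:52343471-52343983, Smarca4 at chr9:21625258-21625783, Blk at chr14:63377335-63377835, Exoc3l2 at chr7:19472285-19472802 and Slc7a5 at chr8:121898330-121898943. The positions are as deposited, and since the counting base of the start is not given they may be off by 1 bp.
Tmtc1, first site: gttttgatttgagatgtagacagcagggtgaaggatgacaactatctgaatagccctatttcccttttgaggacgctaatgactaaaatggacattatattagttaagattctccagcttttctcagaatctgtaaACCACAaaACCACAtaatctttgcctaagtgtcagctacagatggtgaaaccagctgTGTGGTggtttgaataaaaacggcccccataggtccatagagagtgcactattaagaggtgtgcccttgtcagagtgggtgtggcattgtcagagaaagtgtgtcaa
Tmtc1, second site: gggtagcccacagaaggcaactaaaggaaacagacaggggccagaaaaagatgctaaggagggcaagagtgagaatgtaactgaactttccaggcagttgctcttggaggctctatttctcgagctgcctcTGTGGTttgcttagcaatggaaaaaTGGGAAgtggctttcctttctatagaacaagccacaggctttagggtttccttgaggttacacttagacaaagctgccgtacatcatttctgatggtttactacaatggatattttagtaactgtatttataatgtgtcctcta
Fli1: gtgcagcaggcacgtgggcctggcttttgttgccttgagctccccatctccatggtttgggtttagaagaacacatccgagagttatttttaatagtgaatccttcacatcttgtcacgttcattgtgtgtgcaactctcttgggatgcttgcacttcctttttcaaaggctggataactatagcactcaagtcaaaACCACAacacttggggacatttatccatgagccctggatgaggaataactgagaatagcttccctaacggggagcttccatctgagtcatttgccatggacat
Foxo1: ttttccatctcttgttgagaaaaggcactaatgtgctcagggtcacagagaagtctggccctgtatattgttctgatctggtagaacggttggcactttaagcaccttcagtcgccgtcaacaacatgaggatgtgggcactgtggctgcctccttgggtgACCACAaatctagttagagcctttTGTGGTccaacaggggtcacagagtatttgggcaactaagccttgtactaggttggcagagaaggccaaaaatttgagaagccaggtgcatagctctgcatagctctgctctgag
Smarca4: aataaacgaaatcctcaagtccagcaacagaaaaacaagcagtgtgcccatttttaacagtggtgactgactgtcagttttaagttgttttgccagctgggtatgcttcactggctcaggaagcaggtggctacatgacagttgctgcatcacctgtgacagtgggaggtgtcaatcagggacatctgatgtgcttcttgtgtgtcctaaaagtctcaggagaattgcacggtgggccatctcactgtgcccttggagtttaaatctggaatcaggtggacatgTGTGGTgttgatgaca
Blk: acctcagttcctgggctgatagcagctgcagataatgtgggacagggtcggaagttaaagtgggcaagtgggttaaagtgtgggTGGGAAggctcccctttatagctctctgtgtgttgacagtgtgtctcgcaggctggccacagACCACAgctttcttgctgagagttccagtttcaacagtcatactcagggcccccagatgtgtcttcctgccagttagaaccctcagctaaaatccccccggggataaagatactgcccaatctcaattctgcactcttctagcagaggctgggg
Exoc3l2: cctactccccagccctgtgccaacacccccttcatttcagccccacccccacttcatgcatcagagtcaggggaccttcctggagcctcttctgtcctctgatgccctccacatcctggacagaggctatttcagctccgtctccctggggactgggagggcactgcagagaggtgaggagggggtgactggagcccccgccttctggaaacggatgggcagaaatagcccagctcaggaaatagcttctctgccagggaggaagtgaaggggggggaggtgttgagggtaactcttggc
Slc7a5: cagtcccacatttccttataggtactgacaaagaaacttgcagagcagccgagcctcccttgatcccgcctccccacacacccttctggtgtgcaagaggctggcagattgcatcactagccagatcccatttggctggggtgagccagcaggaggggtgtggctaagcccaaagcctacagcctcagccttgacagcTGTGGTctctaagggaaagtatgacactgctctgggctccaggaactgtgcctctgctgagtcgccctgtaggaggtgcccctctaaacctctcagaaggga
The first Tmtc1 window held 3 Runx matches and no Ikaros core. The Foxo1 window held 2 Runx matches, and those of Fli1, Smarca4, Slc7a5, Blk and the second Tmtc1 site held 1 each. The Exoc3l2 window held neither motif. An Ikaros core was in 2 of the 8 windows, those of Blk and the second Tmtc1 site. A match is a run of letters and does not show that the factor was bound.

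The members had a median width of 504 bp, and 72.2% of them were 500 to 520 bp wide. The study's methods describe a round of peak calling with a peak size of 500 bp beside a narrower round. Of the 10968 intronic DHS below the width limit, 421 were over 200 bp wide. Just inside the limit lay DHS of 453 bp in Ddah1 and Sos2 and of 454 bp in Mcub, with mean levels of 2.86, 3.16 and 3.26. Just outside it were DHS of 447 bp in Gnptab and Fggy, with mean levels of 3.73 and 3.10. The widest member, 1363 bp at chrX:169968386-169969749 in Mid1, had a mean level of 3.39 and ranged from 2.36 to 4.36 over the 36 libraries.

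The members lay in 4858 genes, of which 3245 held 1 member each and 198 held 5 or more. A protein-coding gene contained 6792 of them (88.6%), while 437 lay in 2 or more overlapping genes. The first intron held 2550 (33.3%), and 294 lay in a gene record but in no intron of a basic transcript. The median distance to the nearest TSS was 14228 bp, with 1001 members (13.1%) more than 50 kb away (50000 bp). Their median GC content was 46.3%, beside 46.4% in the 7990 broad intergenic DHS and 59.9% in the 9926 broad promoter DHS. The ratio of observed to expected CpG was 0.215 for members, 0.244 for broad intergenic and 0.764 for broad promoter DHS.

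Broad intronic DHS were of moderate accessibility. The median of their mean levels was 3.82 (quartiles 3.47 and 4.22), close to the 3.84 of broad intergenic and the 3.79 of the 10968 narrow intronic DHS, while broad promoter DHS had 4.73 and all DHS 3.95. Library medians of the members lay between 3.72 and 4.00. The member median minus that of all DHS ran from -0.23 to -0.11, so it was lower in each library. The members took 15.3% to 18.9% of the normalised signal over all DHS.

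The most accessible members were outliers to this middle range. A DHS in the first intron of Aida, which encodes a protein that binds axin, at chr1:183299020-183299539, had a mean level of 9.42 and lay between 8.73 and 10.1 in all 36 libraries. It was followed by DHS in Sin3a (6.45), encoding the scaffold of a histone deacetylase complex, in Gm26745 (6.23), in intron 10 of Ebf1 (6.22), the B cell commitment factor, in Mef2c (6.15), a MADS-box transcription factor, and in Nfe2l2 (6.14), encoding the oxidative stress factor Nrf2. The Ebf1 site at chr11:44950315-44950831 stayed between 5.95 and 6.60 in every library. Among the lowest members were those in Gm21188 (1.94) and in Msn (2.07), which encodes moesin. The Gm21188 site ranged from 0.039 to 4.52 over the libraries, so its mean describes no library well.

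Some genes held many members. The most were in Gm20388, an annotated gene that spans many others, with 74, followed by Pde4d, a cAMP phosphodiesterase, with 22, Arhgap26, a GTPase activating protein, and Fgfr2, a fibroblast growth factor receptor, with 20 each, Prkce, a protein kinase C, with 15, and Dlg2 and Mtss1 with 13 each. The 22 Pde4d members were more open than most, with a median level of 4.78 and a range of 3.14 to 5.82. None of the members in Pde4d, Arhgap26, Fgfr2, Prkce, Dlg2 or Mtss1 passed the test at 24 h, and of the 74 in Gm20388 2 were lower in the Ikaros line. Ikzf1 itself held 4 members, with differences at 24 h from -0.37 to 0.58 and none past the threshold (lowest adjusted p = 0.27).

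The first comparison asked how the Ikaros line differed from the Control line at each time, tested two-sided with limma over all DHS. At 24 h 173 members (2.26%) passed the threshold, an adjusted p under 0.05 over all DHS, against 1.33% of all DHS. Of these 127 (1.66%) were higher in the Ikaros line, where all DHS gave 0.809%, and 46 (0.6%) were lower, where all DHS gave 0.517%. At 2 h 15 members passed, 13 of them higher, beside 0.195% of all DHS (0.17% higher and 0.0246% lower), and 9 passed with the replicate number as a block. At 6 h 50 passed, 37 higher and 13 lower, beside 0.578% (0.422% and 0.155%). At 12 h 165 passed, 128 higher and 37 lower, which is 2.15% beside 1.31% of all DHS (0.887% and 0.428%). At 18 h 76 passed, 56 higher and 20 lower, which is 0.992% beside 0.699% (0.5% and 0.199%). The share of members past the threshold was thus near the background at 2 and 6 h and above it at 12, 18 and 24 h. Among broad intergenic DHS 2.24% passed at 24 h, almost the same share as among the members, while narrow intronic gave 0.921% and broad promoter 0.746%.

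**Figure D1:**
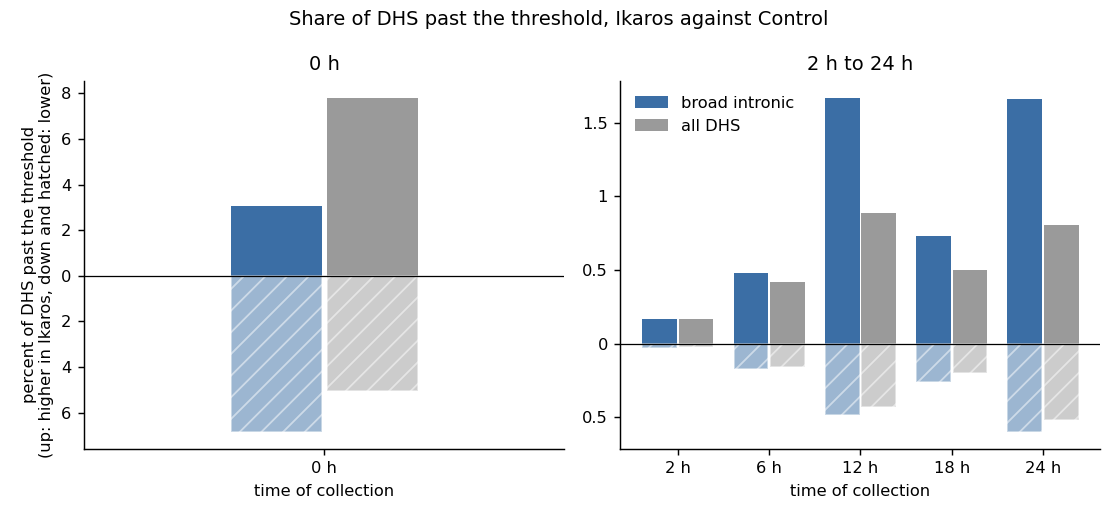
Percent of DHS past the threshold (y axis, percent) at each time (x axis) for the 7663 broad intronic DHS (blue) and all 52788 DHS (grey), with those higher in the Ikaros line drawn upward and those lower drawn downward and hatched. The left and right panels have different scales. At 24 h 1.66% of members were higher against 0.809% of all DHS, and at 0 h 6.85% were lower against 5.04%.

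The counts depend on how the values were scaled. When smooth trends of each library with mean level, GC content and width were taken out, 66 members passed at 24 h (37 higher and 29 lower), beside 0.529% of all DHS, and with quantile normalization 182 passed (106 higher and 76 lower), beside 1.55%. The excess of higher over lower calls at 24 h was therefore much smaller under both. At 12 h these alternatives left 27 (18 higher and 9 lower) and 77 members (54 and 23), beside 0.199% and 0.604% of all DHS. At 2, 6 and 18 h there were 16, 50 and 53 with the trends removed, beside 0.133%, 0.455% and 0.388% of all DHS, so the order of the times by count is not the same under every scaling.

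The counts also rest on single libraries. No share of all DHS is given for the fits without a library, so their counts are not compared with a background. At 24 h 26 to 85 members passed when 1 of its 6 libraries was left out, the lowest without Ikaros 24 h replicate 4 and the highest without Ikaros 24 h replicate 6, and the other 4 libraries gave values between these. At 12 h the lowest was 5, without Ikaros 12 h replicate 6, and at 0 h it was 194, without Control 0 h replicate 6. At 2 h the count ran from 1, without Ikaros 2 h replicate 4 or 5, to 46, without Control 2 h replicate 5. At 6 h it fell to 7 without Ikaros 6 h replicate 6 and at 18 h to 12 without Ikaros 18 h replicate 4.

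The typical member barely differed between the lines. Over the times 2, 6, 12, 18 and 24 h the median difference of the members was -0.0064, -0.018, 0.11, 0.040 and 0.082, beside 0.011, 0.0047, 0.048, 0.027 and 0.055 over all DHS. With quantile normalization the last 3 of these were -0.032, -0.055 and -0.056, so its sign rested on the scaling. At 24 h 59.3% of members had a positive difference, and the central 90% (5th to 95th percentile) ran from -0.46 to 0.80. Broad intergenic DHS had a median of 0.061 at 24 h, narrow intronic DHS 0.17 and broad promoter DHS -0.055.

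**Figure D2:**
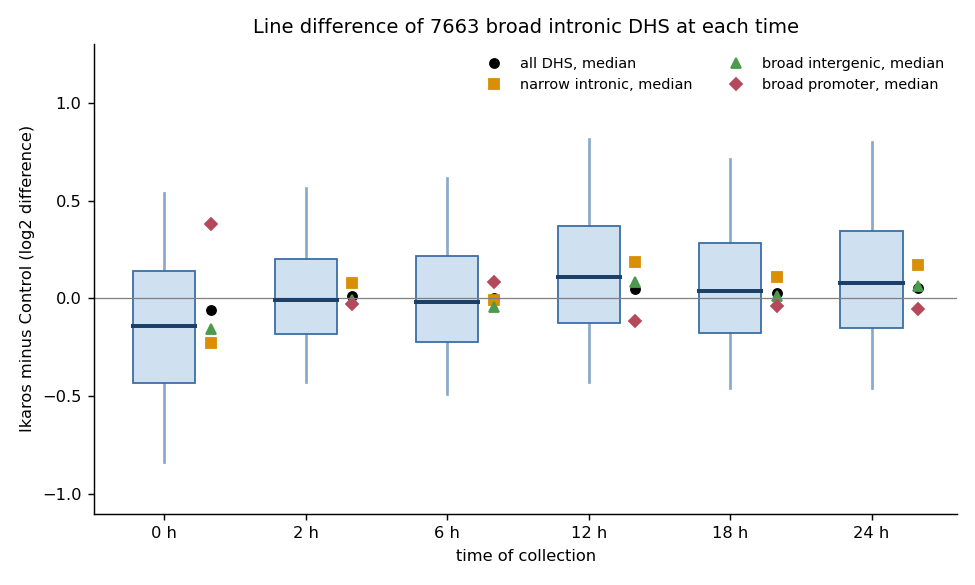
Ikaros minus Control on the log2 scale (y axis) at each time (x axis) for the 7663 broad intronic DHS, with boxes for the quartiles, a line for the median and whiskers to the 5th and 95th percentiles. Symbols give the medians of all DHS and of other classes. The member median was -0.14 at 0 h and 0.082 at 24 h, and the broad promoter median of 0.38 at 0 h lay on the other side of it.

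The members past the threshold at 24 h had median differences of the same sign from 2 h on. Those higher at 24 h had a median difference of 0.15 at 0 h. It was then 0.49, 0.63, 1.06 and 0.84 at 2, 6, 12 and 18 h, before 1.07 at 24 h, the time they were chosen by. All 127 were positive at 12 and 18 h, and 122 at 2 h, but 76 at 0 h. Both lines moved: the median level of these 127 went from 3.67 at 0 h to 4.20 at 24 h in the Ikaros line and from 3.53 to 3.05 in the Control line. The 46 lower members had a median difference of 0.036 at 0 h, which was -0.45 by 2 h and -0.77 at the end, with levels that went from 4.91 to 4.20 in the Ikaros line and from 4.81 to 5.01 in the Control line. These levels are a description, since the members were chosen at 24 h and the noise correction lets groups borrow from each other. The sign was the same in batches 11, 12 and 13 for all 173, which the choice by the same libraries largely fixes.

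Most calls at 12 h were also calls at 24 h, in the members as in all DHS. From 2 h on 255 members passed at 1 or more times, 156 of them (61.2%) at 2 or more, where all DHS gave 1300 and 618 (47.5%). All 156, like all 618, kept their direction between those times. Of the members past the threshold 127 passed at both 12 and 24 h, which is 77.0% of the calls at 12 h and 73.4% of those at 24 h, near the 72.2% and 71.6% of all DHS. These 2 times share no library but share the fitted spread, and the noise correction lets groups borrow from each other. The overlap and the shared direction may therefore be partly built in. At all of 2, 6, 12, 18 and 24 h 5 sites passed, each higher in the Ikaros line, and they were picked out after their values were seen. They lay in Aff3, a transcription elongation factor gene, Ano6, which encodes a phospholipid scramblase, the noncoding gene 5031425E22Rik, Tmtc1 and Fli1. Each of the 5 held 1 Runx match in its central 300 bp, and 1 held an Ikaros core.

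Tmtc1, which encodes an endoplasmic reticulum membrane protein, held the 2 largest differences at 24 h. The first site, in intron 5, had levels of 4.73, 4.92 and 4.37 in the Ikaros line and 2.10, 2.67 and 2.30 in the Control line. The groups did not overlap, which the rule for members named by the size of their difference required. The difference of 2.32 (SE 0.28) had an adjusted p of 5.6e-05. It passed in all 16 alternatives, with adjusted p up to 0.037. The second site, in the same intron, had 4.18, 3.91 and 4.05 against 2.18, 1.96 and 1.87, a difference of 2.04 (SE 0.26, adjusted p = 8.2e-05) that was lost only without replicate 6 (adjusted p = 0.075, with 1.9e-06 to 0.075 over 16 alternatives). Its lines were apart at 0 h already, with 3.92, 4.43 and 4.11 against 2.53, 2.98 and 3.02 and a difference of 1.31 (adjusted p = 0.0018). Of the 4 members in Tmtc1, 3 were higher at 24 h and the fourth had a difference of 0.80.

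Fli1, an ETS transcription factor of blood cells, held a member in intron 8 that differed at all 6 times. At 24 h the Ikaros libraries had 4.87, 4.78 and 4.87 and the Control libraries 3.23, 3.72 and 2.67, a difference of 1.63 (SE 0.21, adjusted p = 8.2e-05). At 0 h they had 5.19, 5.00 and 5.26 against 3.34, 3.90 and 3.68, a difference of 1.51 (SE 0.21, adjusted p = 0.00015), and at 6 h the difference was 1.70 (adjusted p = 3.5e-05). The groups did not overlap at any of the 6 times, which the rule for named members fixed at 0 and 6 h. The call at 24 h was lost without replicate 6 (adjusted p = 0.057, from 1.9e-06 over 17 alternatives) and that at 0 h when only its own groups were fitted (adjusted p = 0.12, from 6.4e-05 over 16). The change from 0 h to 24 h was 0.13 (adjusted p = 0.82).

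In Arl13b, which encodes a small GTPase of the primary cilium, the pattern was different. A member in intron 3 at chr16:62826105-62826614 had 4.78, 4.63 and 4.21 in the Ikaros line at 24 h and 2.57, 2.62 and 3.15 in the Control line, a difference of 1.76 (SE 0.31, adjusted p = 0.0041). At 0 h the Ikaros libraries had 3.24, 3.25 and 2.72 and the Control libraries 4.34, 3.17 and 3.50, which overlap. Leaving out replicate 4, 5 or 6 in both lines ended the call at 24 h in each case (adjusted p up to 0.18, from 0.00087 over 17 alternatives).

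Exoc3l2, which encodes a protein related to a subunit of the exocyst, was among the genes with a lower member at 24 h. Its site in intron 2 had 3.81, 3.80 and 3.85 in the Ikaros line and 5.03, 4.98 and 5.12 in the Control line, a difference of -1.22 (SE 0.21, adjusted p = 0.0039). At 0 h it had 4.97, 5.11 and 5.04 against 5.13, 4.45 and 4.23, in groups that overlap. The lines were apart from 2 h on, which the rule for named members fixed at 12 and 24 h. The difference at 12 h was -1.17 (adjusted p = 0.0079, from 0.0015 to 0.21 over 17 alternatives, and lost without Control 12 h replicate 5 or Ikaros 12 h replicate 6). The call at 24 h was lost without replicate 5 and without replicate 6 (adjusted p up to 0.15, from 8.4e-05 over 17 alternatives).

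The lowest difference at 24 h was on the Y chromosome, which held 7 members, in Gm47283 at chrY:90813501-90814002. The Ikaros libraries had 3.45, 2.89 and 2.38 and the Control libraries 4.75, 4.98 and 4.17, a difference of -1.73 (SE 0.40, adjusted p = 0.026) that was lost in 7 of 17 alternatives (adjusted p 0.0050 to 0.34). Those are without Control 24 h replicate 4 or 5, without Ikaros 24 h replicate 5 or 6, and without replicate 4, 5 or 6 in both lines. The noncoding gene Gm48749 held a member with 3.04, 3.30 and 3.18 against 4.14, 4.36 and 4.66, a difference of -1.21 (SE 0.21, adjusted p = 0.0030). Its groups did not overlap from 2 h on, which the rule for named members fixed at 12, 18 and 24 h. The call at 24 h was lost without replicate 4, 5 or 6 in both lines (adjusted p up to 0.16). The central 100 bases of both sites occur at 1 place in the assembly, as do those of the other members picked by the rule for named members. Bases masked as repeats made up 72.9% of the Gm47283 site and 67.7% of the Gm48749 site, beside a median of 12.0% over the members. Whether reads from the rest of each site map to 1 place was not tested.

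**Figure D3:**
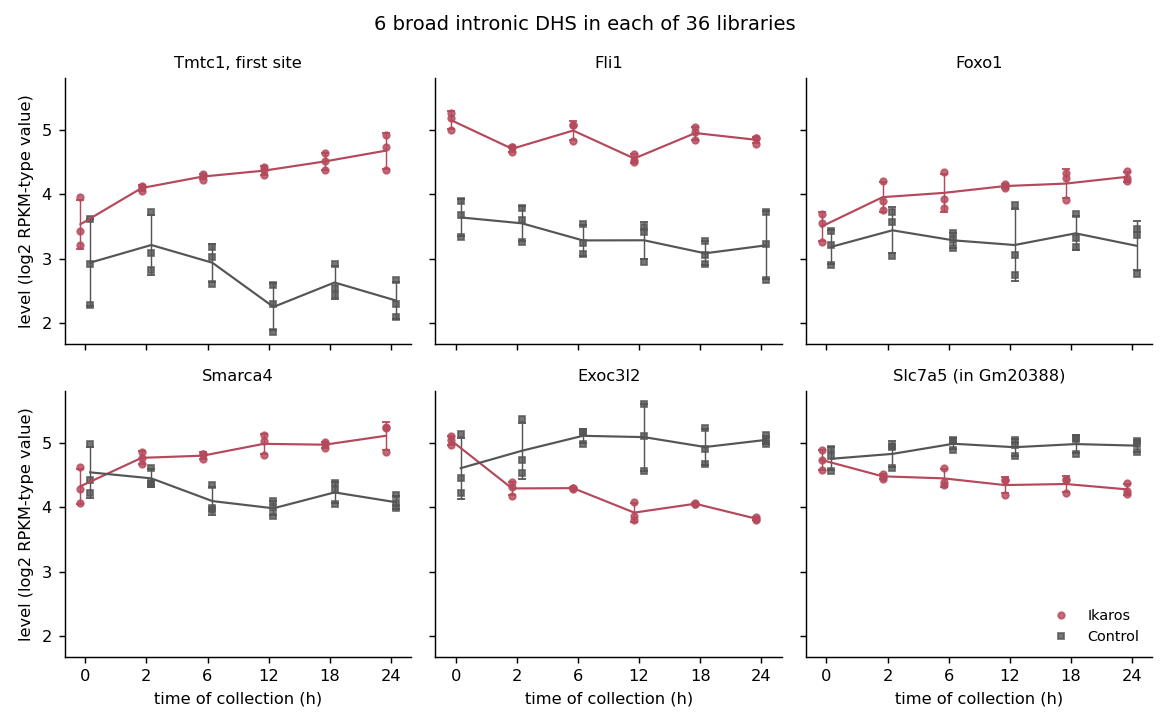
Levels (log2, y axis) of 6 broad intronic DHS in each of the 36 libraries by time (x axis, evenly spaced), with circles for Ikaros and squares for Control libraries, lines through the means and bars of 1 SD (n = 3). In Fli1 the lines were apart at every time, while in Exoc3l2 and Smarca4 they overlapped at 0 h and were apart at 24 h, at 3.81 to 3.85 against 4.98 to 5.12 in Exoc3l2.

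At the other times the same sites led in part. At 2 h the highest differences were in Aff3, with 3.85, 4.14 and 3.96 against 2.48, 2.49 and 2.96 (1.34, SE 0.20, adjusted p = 0.0011), and in 5031425E22Rik (1.31, adjusted p = 0.0098). The 2 lower members at 2 h were in Gramd1b, a sterol transfer protein gene, with 4.27, 4.37 and 4.56 against 5.20, 5.20 and 5.26 (-0.82, adjusted p = 0.015), and in Tbc1d16, a Rab GTPase activating protein gene (-0.77, adjusted p = 0.033, and 0.054 with the replicate block, from 0.013 to 0.70 over 17 alternatives). The Gramd1b call was lost in 8 of 17 alternatives (adjusted p 0.0060 to 0.70) and the Tbc1d16 call in 12 of 17. Quantile normalization, a spread per group and leaving out Ikaros 2 h replicate 4 or 5 each ended both. The lines did not overlap at 2 h in Gramd1b or Tbc1d16, which the rule for named members required. At 6 h Fli1 was followed by Pcdh15, a protocadherin gene, with a difference of 1.65 (adjusted p = 0.034). That call was lost in 11 of 16 alternatives (adjusted p 0.020 to 0.40), under both scalings and without any 1 of the 6 libraries except Control 6 h replicate 5. The lowest at 6 h were in Sorcs2, a sortilin family receptor gene, and Zdhhc18, a palmitoyltransferase gene, both at -1.05 (adjusted p = 0.014 and 0.0047). At 12 h the first Tmtc1 site (2.11) and Adamts9 (2.09) were highest. The Adamts9 call was lost in 7 of 16 alternatives (adjusted p 0.0046 to 0.22), with the trends removed and without Control 12 h replicate 5 or Ikaros 12 h replicate 4 or 6 among them. The lowest at 12 h were Exoc3l2 and Gm48749 (-0.99, adjusted p = 0.017). At 18 h Klri1, a killer cell lectin-like receptor gene, was highest with 3.90, 4.04 and 3.84 against 1.37, 1.67 and 2.33 (2.14, adjusted p = 0.0031), with the first Tmtc1 site next (1.88), while Atp2b2, which encodes a calcium pump, was lowest (-1.13, adjusted p = 0.037, lost without any 1 of the 6 libraries at 18 h and in 10 of 17 alternatives, from 0.0086 to 0.29), followed by Gm48749 (-1.08). The Klri1 site was also apart at 0 h, with 3.79, 4.28 and 3.92 against 2.29, 2.52 and 2.81.

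At 0 h 759 members passed (9.9%), beside 12.9% of all DHS, with 234 higher (3.05% against 7.81%) and 525 lower (6.85% against 5.04%). The median difference was -0.14 for members, -0.060 for all DHS, -0.23 for narrow intronic, -0.16 for broad intergenic and 0.38 for broad promoter DHS. With the trends of level, GC and width removed 321 members passed, 192 higher and 129 lower, which is 4.19% beside 3.2% of all DHS, and the median was -0.038. With quantile normalization 477 passed (224 and 253), beside 8.35% of all DHS. The balance thus turned with the trends removed, and so did the order of the members' share and that of all DHS. With a spread for each group 103 members passed at 0 h and 639 at 24 h, beside 2.8% and 6.12% of all DHS, so whether more members differed at 0 h than later rests on the fit. Sytl3, a vesicle trafficking gene, had the lowest difference, with 1.96, 1.92 and 3.12 in the Ikaros line against 4.57, 3.69 and 5.03 (-2.10, SE 0.31, adjusted p = 0.00022), followed by Pard3, a cell polarity gene (-1.51, adjusted p = 0.0082). The Pard3 site had 1.13, 3.70 and 2.53 in the Ikaros line, which lie far apart, against 3.95, 3.85 and 4.09. Its call was lost in 4 of 15 alternatives (adjusted p 0.00078 to 0.23), the one without Ikaros 0 h replicate 4 among them. The highest was in Rgl1, a Ral guanine nucleotide exchange factor gene, with 5.26, 4.86 and 4.29 against 2.64, 3.52 and 3.45 (1.60, SE 0.27, adjusted p = 0.00052), followed by Fli1. When only the 0 h libraries were fitted no member passed. In the fit to all libraries 1974 members (25.8%) had an unadjusted p under 0.05, beside 28.1% of all DHS.

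Of the members past the threshold at 0 h or 24 h, 28 passed at both, 3.69% of the calls at 0 h and 16.2% of those at 24 h, beside 1.58% and 15.3% in all DHS, and 22 of the 28 had the same sign. The change in the line difference itself passed in 205 of the 759 (27.0%), beside 30.6% of the DHS called at 0 h. The 525 members lower at 0 h had a median difference of -0.87 then and of 0.083 at 24 h. Their median level in the Ikaros line was 3.26 at 0 h, 3.84 at 2 h and 4.07 at 24 h, while in the Control line it was 4.14 at 0 h and 3.98 at 24 h. All members had a median difference of 0.082 at 24 h. The 525 were chosen by their 0 h values, so a return towards all members is partly fixed by the choice. The calls at 0 h and those of the change also share the 0 h libraries.

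The second comparison asked how much the difference between the lines changed from 0 h to 24 h. In this interaction 427 members passed (5.57%), beside 6.26% of all DHS, with 326 higher (4.25% against 2.85%) and 101 lower (1.32% against 3.4%). With the trends removed 43 passed, 17 higher and 26 lower, beside 0.443% of all DHS, with quantile normalization 184 passed (104 and 80), beside 2.55%, and when only the 4 groups of the comparison were fitted 1 passed. The count and its balance thus changed with the scaling and with the groups fitted together. The largest positive change was in Adamts9, which encodes a metalloproteinase, at chr6:92776294-92776798. Its Ikaros libraries went from 1.75, 2.14 and 2.77 at 0 h to 4.34, 4.53 and 4.22 at 24 h and its Control libraries from 3.96, 2.93 and 3.46 to 3.11, 2.24 and 2.53, a change of 2.97 (SE 0.60, adjusted p = 0.0089). The lines crossed between 0 h and 24 h, with no overlap at either time, which the rule for named members fixed at 24 h. The difference was uneven in between, with 1.19, 0.22, 2.09 and 0.57 at 2, 6, 12 and 18 h. The call of the change was lost in 3 of 21 alternatives (adjusted p 0.0046 to 0.094). These were the fit to only the groups of the comparison and those without replicate 5 or 6.

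Adam18, a metalloproteinase-like gene of the testis, and Plcb1, a phospholipase C gene, followed with changes of 2.55 (SE 0.61, adjusted p = 0.018) and 2.41 (SE 0.46, adjusted p = 0.0069). Both lost the call with the trends removed (adjusted p = 0.089 and 0.059, with 0.014 to 0.098 and 0.0048 to 0.088 over 21 alternatives each). The largest negative changes were in Exoc3l2 (-1.65, SE 0.30, adjusted p = 0.0060), in Bcl2l15, a Bcl2 family gene (-1.49, SE 0.36, adjusted p = 0.018), and in Stim1, the calcium sensor of the endoplasmic reticulum (-1.47, SE 0.36, adjusted p = 0.020). The Bcl2l15 site had 3.56, 3.86 and 2.92 in the Ikaros line at 24 h against 4.09, 4.34 and 4.21, and 4.72, 4.40 and 4.25 at 0 h against 4.29, 3.41 and 3.51.

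Within the Ikaros line 1108 members passed between 0 h and 24 h (14.5%), 763 higher and 345 lower at 24 h, beside 12.6% of all DHS (7.47% higher and 5.14% lower). There were 308 higher and 371 lower with the trends removed, beside 6.78% of all DHS called, and 481 and 534 with quantile normalization, beside 10.9%. Within the Control line the count was 0 of 7663, beside 0% of all DHS in either direction. An unadjusted p under 0.05 was found there for 401 members (5.23%), beside 7.35% of all DHS. In the Ikaros line it was found for 2400 members (31.3%), beside 29.4% of all DHS. Time and the separate collection of the 0 h cells cannot be told apart here. Sytl3 and Adamts9 were the highest (2.22, adjusted p = 0.00023, and 2.14, adjusted p = 0.0026), and Gm47283 and Pak6, a kinase gene, the lowest (-2.10 and -1.43, adjusted p = 0.0019 for each). In Sytl3 the Ikaros libraries went from 1.96, 1.92 and 3.12 to 4.49, 4.51 and 4.64 and met the Control level of 4.44, 4.45 and 4.14. The spread between replicates differed by line: averaged over 2 h to 24 h, the median replicate SD of the members was 0.17 in the Ikaros line and 0.28 in the Control line.

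The members were then read by the genes that hold them. List counts at 24 h are to be read beside the 0.809% higher and 0.517% lower among all DHS. The B-lineage transcription factor list had 81 members in 25 of its 47 genes, with a median level of 4.08. At 24 h 4 were higher, 2 lower and 75 did not pass, with a median difference of 0.13 (-0.018 with quantile normalization and -0.026 with the trends removed), beside 0.055 over all DHS. After Fli1 the largest differences were in Foxo1, a forkhead factor of pre-B differentiation, with 4.20, 4.35 and 4.25 against 2.77, 3.37 and 3.46 (1.07, SE 0.25, adjusted p = 0.029), in Zeb1, a zinc finger repressor, with 3.67, 3.73 and 3.73 against 2.68, 3.04 and 2.67 (0.91, adjusted p = 0.041, and 0.052 with the replicate block, from 0.0094 to 0.39 over 16 alternatives, and lost without any 1 of the 6 libraries at 24 h), and in Tcf12, the E protein HEB (0.83, adjusted p = 0.11). The Foxo1 groups did not overlap at 24 h, but the call was lost in 10 of 17 alternatives (adjusted p 0.0039 to 0.25), among them the one with the trends removed and those without Ikaros 24 h replicate 4, 5 or 6 and Control 24 h replicate 4 or 5. The other calls of this list at 24 h lay outside the rule for named members and were picked out after their values were seen. Another Ebf1 site than the highly open one had 6.17, 5.82 and 5.56 against 5.17, 5.01 and 5.21 (0.72, adjusted p = 0.0099). It was lost in 6 of 17 alternatives (adjusted p 0.00024 to 0.26), with the trends removed and without Ikaros 24 h replicate 4 among them. The lower sites were in Myb, a factor of blood progenitors (-0.66, adjusted p = 0.017, from 0.0023 to 0.22 over 17 alternatives), and Runx2, a Runx family factor (-0.65, adjusted p = 0.034, from 0.0053 to 0.28 over 17), and both calls were lost with the trends removed. In Myb the call was also lost without Control 24 h replicate 5 or Ikaros 24 h replicate 4 or 6, and in Runx2 without any 1 of the 6 libraries except Ikaros 24 h replicate 6. At 0 h 5 of the 81 were higher, beside 7.81% of all DHS, and none lower.

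The pre-B receptor signalling list had 69 members in 27 of 39 genes, of which 2 were higher, 1 lower and 66 did not pass at 24 h. Among all DHS 0.809% were higher and 0.517% lower. The median difference was 0.035, but -0.069 with quantile normalization and -0.035 with the trends removed, where no member passed. Blk, a Src family kinase of B cells, had 4.25, 3.88 and 4.05 against 3.07, 2.37 and 2.73 (1.34, SE 0.35, adjusted p = 0.049, and 0.066 with the replicate block, from 0.0048 to 0.29 over 16 alternatives). Vav3, a guanine nucleotide exchange factor, had 4.45, 4.75 and 4.23 against 3.13, 3.77 and 3.33 (1.07, SE 0.25, adjusted p = 0.025). In both genes the groups were apart at 24 h, and the calls were lost in 12 of 16 and 9 of 17 alternatives. For Blk leaving out any 1 of the 6 libraries did so, and for Vav3 Ikaros replicate 4 or 5 and Control replicate 4 or 6 (adjusted p 0.0045 to 0.23). The lower call was in Pik3cd, a phosphoinositide 3-kinase subunit of leukocytes, picked out after its value was seen, with 4.36, 4.66 and 4.43 against 4.91, 5.37 and 5.55 (-0.79, adjusted p = 0.038, and 0.0504 with the replicate block, from 0.0033 to 0.43 over 17 alternatives). It was lost in 11 of these, with the trends removed and without any 1 of the 6 libraries except Control 24 h replicate 4. Inpp5d, the phosphatase SHIP1, had a difference of -0.85 (adjusted p = 0.068) and Gab2, an adaptor, 0.84 (adjusted p = 0.15).

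Chromatin proteins that work with Ikaros held 32 members in 13 of 25 genes, with 2 higher, 1 lower and 29 not past the threshold at 24 h. All DHS gave 0.809% higher and 0.517% lower. The median difference was 0.095, but -0.082 with quantile normalization and -0.051 with the trends removed. Smarca4, the ATPase Brg1 of SWI/SNF, had 5.23, 5.24 and 4.85 in the Ikaros line against 4.19, 3.99 and 4.06 (1.03, SE 0.17, adjusted p = 0.0026). Its groups overlapped at 0 h and were apart from 2 h on, and the difference passed with the trends removed as well (adjusted p = 0.0021, with 0.00014 to 0.15 over 17 alternatives). The class IIa deacetylase genes went both ways, with 1.01 in Hdac9 (adjusted p = 0.032), -0.91 in Hdac7 (adjusted p = 0.029) and 0.82 in Hdac4 (adjusted p = 0.066). The Hdac7 site had 5.07, 4.91 and 4.86 against 5.69, 5.76 and 6.11. Both calls were lost in many alternatives, 11 of 17 for Hdac9 (adjusted p 0.0033 to 0.33) and 9 of 17 for Hdac7 (adjusted p 0.0015 to 0.40), the trends removed among them. Leaving out any 1 of the 6 libraries at 24 h ended the Hdac7 call, and any but Ikaros replicate 6 the Hdac9 call.

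The glycolysis and nutrient uptake list held 15 members in 11 of 23 genes and had the lowest median of the lists at 24 h, -0.45, where all DHS had 0.055. It was -0.48 with quantile normalization and -0.32 with the trends removed. Of the 15, 1 was lower, beside 0.517% of all DHS, none higher and 14 did not pass, while 3 had a positive difference. The site that passed lay in Slc7a5, the large neutral amino acid transporter, which Gm20388 overlaps, with 4.25, 4.21 and 4.37 against 4.85, 5.03 and 4.98 (-0.68, SE 0.14, adjusted p = 0.011). Its groups overlapped at 0 h and were apart from 2 h on. The call was lost in 7 of 17 alternatives (adjusted p 0.0012 to 0.28), with the trends removed and without Ikaros 24 h replicate 4 or 5 among them. The glucose transporter gene Slc2a1 had 3.56, 3.57 and 3.88 against 4.36, 4.21 and 4.20 (-0.59, adjusted p = 0.064), the lactate transporter gene Slc16a3 -0.59 (adjusted p = 0.12) and the phosphofructokinase gene Pfkp -0.49 (adjusted p = 0.29).

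The remaining lists held few calls at 24 h, where 1.33% of all DHS passed. The cytokine receptor and Jak-Stat list had 19 members and no call (median 0.16), with 1.09 in Flt3 (adjusted p = 0.12), 1.01 in Tgfbr1 (adjusted p = 0.087), 0.70 in Tgfbr2 (adjusted p = 0.11) and 0.68 in the phosphatase gene Ptpn1 (adjusted p = 0.10). The cell cycle and growth list had 16 members and no call (median -0.11), with 0.95 in Rptor of the mTOR complex (adjusted p = 0.12), 0.75 in Rb1 (adjusted p = 0.16), -0.48 in the cyclin gene Ccnd3 (adjusted p = 0.27) and -0.28 in Cdk6 (adjusted p = 0.68). All 6 members in Ccnd3 had a negative difference, from -0.48 to -0.047. The adhesion and migration list had 41 members and no call (median 0.11), with 1.06 in Elmo1 (adjusted p = 0.19), 1.00 in the focal adhesion kinase gene Ptk2 (adjusted p = 0.10), 0.69 in Arhgap15 (adjusted p = 0.14) and -0.64 in the integrin gene Itgb2 (adjusted p = 0.38). The T-lineage and Notch list had 13 members and no call (median 0.21), with -0.45 in Tcf7 (adjusted p = 0.26), 0.42 in Themis (adjusted p = 0.52), 0.41 in Satb1 (adjusted p = 0.54) and 0.38 in Dtx1 (adjusted p = 0.46).

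Long genes of the nervous system, listed as genes with no known role in B cells, held 46 members in 12 of 15 genes. Of these 1 was higher, beside 0.809% of all DHS, none lower and 45 did not pass at 24 h. Yet their median difference of 0.36 was the highest of the lists, and 40 were positive. The list's median was -0.44 at 0 h, with 6 lower and 40 not past the threshold, beside 5.04% of all DHS lower. The median of its change between 0 h and 24 h was 0.73, with 6 members past the threshold, beside 6.26% of all DHS. With the trends removed the median at 24 h was -0.0056, below the 0.11 of the T-lineage list, and with quantile normalization 0.15. The member that passed was in Cntnap2, a neurexin family gene, with 4.69, 4.64 and 4.45 against 3.38, 3.84 and 3.71 (0.95, adjusted p = 0.029), a call lost in 9 of 17 alternatives (adjusted p 0.0032 to 0.24), among them those without Ikaros 24 h replicate 4, 5 or 6 and Control 24 h replicate 4 or 6. Nrxn3 had a difference of 1.10 (adjusted p = 0.080), Dlg2 0.89 (adjusted p = 0.16) and Kcnip4 0.70 (adjusted p = 0.25).

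GC content moved with the line difference across the members. When the members were split into 4 equal bins by GC, the lowest bin (24.0% to 42.2%) had a median difference of -0.26 at 0 h and 0.29 at 24 h, and the highest (50.5% to 75.4%) had -0.0091 and -0.096. The bins between had 0.15 and 0.035 at 24 h. The low-GC bin held 64 of the 127 higher members and 2 of the 46 lower ones, while the high-GC bin held 7 and 27. The same order was seen in all DHS of those GC ranges, with medians of 0.43, 0.19, 0.072 and -0.071 at 24 h. The part of GC content in the line difference was not tested.

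**Figure D4:**
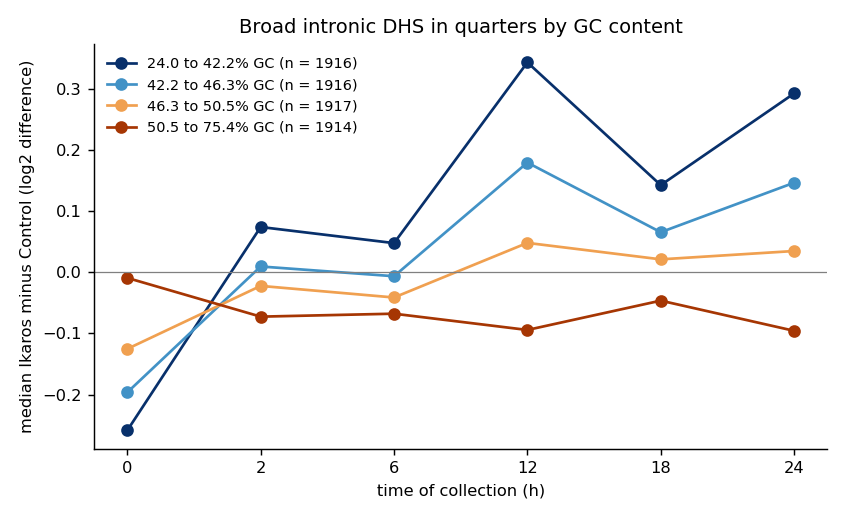
Median Ikaros minus Control difference (log2, y axis) by time (x axis, evenly spaced) for the members in 4 equal bins by GC content. The bins kept 1 order from 2 h to 24 h, with 0.29 in the lowest and -0.096 in the highest GC bin at 24 h, and the reverse order at 0 h.

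The pattern with mean level was about as wide as that with GC content, and the pattern with position was narrower. In 4 equal bins by mean level, the lowest had a median difference of 0.32 at 24 h with 47 higher and 0 lower, and the highest had -0.088 with 15 higher and 39 lower. The SD over the members within a library was narrower in the Ikaros line from 2 h to 24 h. It was 0.52 to 0.62 there and 0.69 to 0.83 in the Control line. At 0 h its mean was 0.74 in the Ikaros and 0.62 in the Control libraries. The part of this spread in the line differences was not tested. Members higher at 24 h had a median level of 3.59 and a median GC content of 42.0%, those lower 4.70 and 52.2%, and all members 3.82 and 46.3%. The 2550 members in a first intron had a median difference of 0.061 at 24 h and of -0.052 at 0 h, and the 4789 in later introns 0.096 and -0.20. First introns gave 40 higher and 20 lower members at 24 h (1.57% and 0.784%), and later introns 84 and 21 (1.75% and 0.439%). In 4 equal bins by distance, the members farthest from a TSS, from 30336 bp, had a median of 0.18 and the nearest 0.021.

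Few promoter DHS of the host genes passed the threshold at 24 h, where 1.33% of all DHS passed. Such small numbers cannot show whether promoters move with their intronic sites. The 127 members higher at 24 h lay in 131 genes, of which 72 had a promoter DHS in the table. Of the 88 promoter DHS of those genes none was higher and 1, at Aff3, was lower (-0.73), and their median difference was -0.014. The 46 lower members lay in 45 genes with 29 promoter DHS, of which 1 was lower and none higher (median -0.18). Among the 3232 promoter DHS of the genes whose members did not pass, 8 were higher and 19 lower (median -0.038). Whether calls cluster in genes was not tested. At 24 h 9 genes held 2 or more members past the threshold, and in each gene these had the same sign. Besides Tmtc1 they included Celf2, an RNA-binding protein gene with 2 higher members, Grb10, a growth factor receptor adaptor gene with 2 lower members, and Mgat5, a glycosyltransferase gene with 2 higher members of 1.12 and 1.54, which were picked out after their values were seen.

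Motif content set the members apart from promoters more than from other distal sites. In the central 300 bp, Runx (TGTGGT) was found in 33.8% of members, 31.5% of narrow intronic, 30.5% of broad intergenic and 14.8% of broad promoter DHS, and in 27.3% of all DHS. The Sp motif GGGCGG was in 8.27% of members and 62.1% of broad promoter DHS (20.2% of all DHS), and the ETS motif CCGGAA in 5.30% and 32.0% (10.9%). The Ikaros core TGGGAA was in 25.3% of members and 24.7% of all DHS, a difference of less than 1 percentage point. The PU.1-type motif GAGGAAG was in 18.5% (16.9% of all DHS), the E-boxes CAGCTG and CAGGTG in 21.7% and 22.9% (19.7% and 21.8%), EBF CCCNNGGG in 15.5% (15.6%) and the CTCF core AGGNGGC in 33.2% (33.8%). ETS-IRF GGAANNGAA was in 10.6% (10.4%), AP-1 TGANTCA in 10.1% (9.11%), FOXO TGTTTAC in 4.18% (3.65%) and the octamer ATGCAAAT in 2.73% (2.27%). Both strands were searched, and motifs may overlap, since GAGGAAG and GGAANNGAA share letters with other ETS sites.

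Some motif shares differed between the members that passed at 24 h and the rest, without a test of these differences. Others were alike, such as AP-1 with 10.2% of the higher, 10.9% of the lower and 10.1% of the members that did not pass. Of the 127 higher members 65 held a Runx match (51.2%), against 33.5% of the 7490 members that did not pass and 16 of the 46 lower ones (34.8%). With the trends removed 29 of the 37 higher members held a Runx match (78.4%) and 11 of the 29 lower ones (37.9%). The share of members with a Runx match was 32.8% to 35.2% in the GC bins. The part of GC content in the motif shares was not tested. Of members without a Runx match 1.22% were higher at 24 h, of those with 1 match 2.14% and of those with 2 or more 3.91% (21 of 537), beside 0.809% of all DHS. The octamer was in 12 of the 127 higher members (9.45%) and in 0 of the 46 lower ones, against 2.63% of those that did not pass, and FOXO was in 9 of 127 (7.09%).

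Among the 46 lower members an E-box CAGCTG was in 18 (39.1%) and EBF in 15 (32.6%), against 21.6% and 15.4% of members that did not pass. With the trends removed these shares among the 29 lower members were 27.6% for each, and both sets of lower members are small. The Ikaros core was in 31 of the 127 higher members (24.4%) and 14 of the 46 lower ones (30.4%), beside 25.3% of those that did not pass. It was in 6 of 37 higher (16.2%) and 10 of 29 lower members (34.5%) with the trends removed, and in the central 200 bp in 12.6% of the 127 and 28.3% of the 46, beside 17.8% of those that did not pass. The CTCF core was in 16.5% of the higher members and 33.5% of those that did not pass, and its share of members rose with GC content from 25.8% in the lowest to 42.3% in the highest bin. It was in 28.3% of the lower members. Among the calls left with the trends removed these shares were 27.0% of the higher and 13.8% of the lower members, so their order turned. At 0 h, Runx was in 45.3% of the 234 higher members and 25.5% of the 525 lower ones, and the PU.1-type motif in 29.9% and 12.0%.

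**Figure D5:**
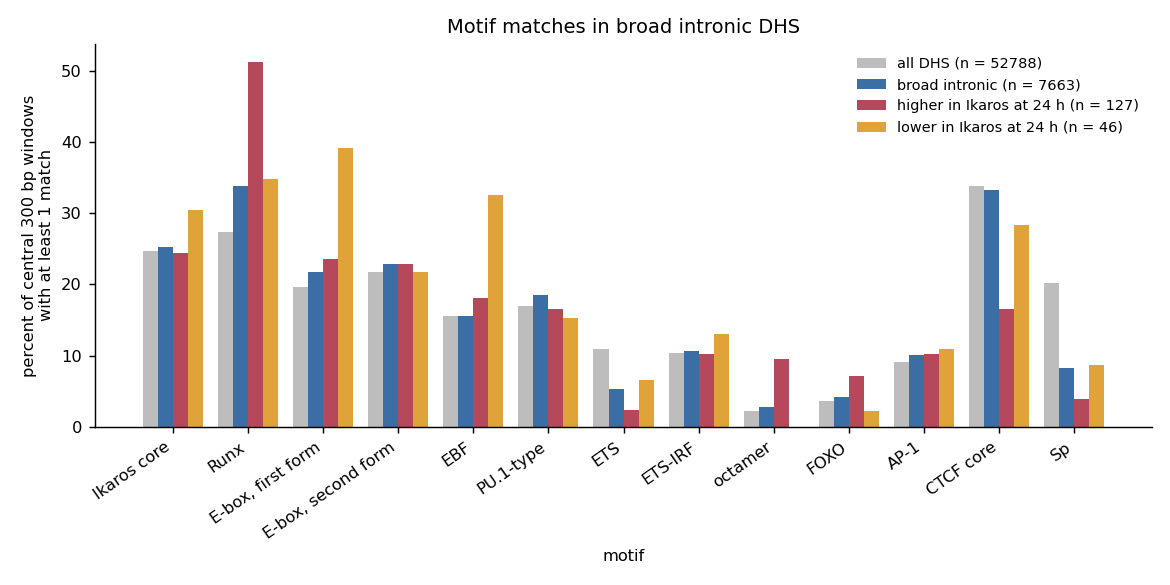
Percent of central 300 bp windows with at least 1 match (y axis) for 13 motifs (x axis) in all DHS, all members, and members higher or lower in the Ikaros line at 24 h. The first E-box form ends in the letters GCTG and the second in GGTG. The Runx bars stand at 27.3%, 33.8%, 51.2% and 34.8%.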

How the data were processed

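DNase-seq signal was measured in 36 libraries. The authors trimmed the reads, mapped them to mm10 with Bowtie2, called narrow and 500 bp peaks per replicate with HOMER, merged them to a consensus list and counted reads with Bedtools. The authors deposited log2 values, scaled as RPKM and by TMM, from which they removed structured noise with ARSyN over all libraries. The group means span 6 of 11 possible dimensions, so groups borrow from one another. Tool versions are not given in the sources used here, and no read counts were used. Base 2 was settled from the values.

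Members were found with the GENCODE vM21 basic annotation. Members and gene lists were chosen with earlier results of these data known. Group means were fitted to all 36 libraries with limma 3.58.1 (R 4.3.3), with a trended prior, two-sided, and p-values were adjusted by Benjamini-Hochberg over 52788 DHS with a threshold of 0.05. A set was described by counts and medians beside those of all DHS. The named members were those with the 2 highest and 2 lowest differences past the threshold per comparison without overlap of the groups (3 and 3 at 24 h and for the change), up to 4 per gene list with the largest difference at 24 h, the 6 highest and 3 lowest levels, and those at the width limit and the widest, beside the 6 genes with most members (7 with a tie). A few items that this rule names are not reported here. The labels tie replicates 4, 5 and 6 to batches 11, 12 and 13, and the correlation of deviations between same-numbered samples ran from -0.18 to 0.18 (median -0.015, over 0.1 in 3 of 18 pairs). The methods describe the replicates as repeats of the whole time course. The fit was tried on simulated data with independent noise, the same spread in all groups and no noise correction. For changes of 1 on the log2 scale in Ikaros 24 h it recovered 29 of 100 DHS, and for changes of 2 it recovered 85 of 100. It made 7 false calls among 52788 DHS. The deposited values differ from this setting, so these shares may not hold for them. A member that did not pass may still have changed. Alternatives were other scalings, filters, fits, the replicate block, left-out replicates and a 200 bp motif window. Figures were drawn with Python 3.11.15 and matplotlib 3.10.9.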

Additional observations from a re-analysis of the deposited data

Results flagged for a closer look

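By an interaction tested with limma, 427 broad intronic DHS passed for a change in the line difference between 0 h and 24 h. That is 5.57% of the members, beside 6.26% of all DHS, and 43 members passed with the trends removed. The 6 named members with such a change were Adamts9 (2.97), Adam18 (2.55), Plcb1 (2.41), Exoc3l2 (-1.65), Bcl2l15 (-1.49) and Stim1 (-1.47), on the log2 scale. The 427 went to 141 without Control 0 h replicate 6 and to 633 without Control 0 h replicate 5. Groups of 3 libraries were not searched for outlying samples.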

How the results depend on the processing

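The methods give only a minimum depth per library, so what depth limits at a single DHS cannot be given, and the 3 replicates per group limit precision. Of 46 named results past the threshold, 2 stayed past it under every alternative tried, the first Tmtc1 site at 24 h and Sytl3 between 0 h and 24 h in the Ikaros line, and none changed sign. Over the alternatives of the named results 968 kept their side of the threshold, 232 lost it and 19 gained it. Where counts moved by more than 1.5 times the cause was not tested. For members past the threshold, quantile normalization gave 477, 8 and 77 at 0, 2 and 12 h and 184 for the change in the line difference. Trends removed gave 321, 27 and 66 at 0, 12 and 24 h, 43 for the change and 679 for Ikaros 24 h minus 0 h. Only the groups of the comparison, with fewer samples, gave 0 at 0, 2, 6 and 12 h, 5 at 18 h, 73 at 24 h, 1 for the change and 177 for Ikaros 24 h minus 0 h. A spread per group gave 103, 2, 105, 307 and 639 at 0, 2, 6, 18 and 24 h and 218 for the change. Leaving out the lowest 25% of DHS by level gave 88 at 12 h and 106 at 24 h, with fewer members tested. The replicate block, which pairs samples by batch, gave 9 at 2 h and ended the calls of Blk, Zeb1, Pik3cd and Tbc1d16, and changed no other named call. Without the 0 h groups, an alternative chosen after seeing the data, 24, 94 and 270 passed at 2, 6 and 12 h. Leaving out replicates gave 103 to 871, 1 to 46, 2 to 48, 1 to 140, 1 to 56 and 1 to 85 in the order of the times from 0 h to 24 h, 10 to 633 for the change, 148 to 916 for Ikaros 24 h minus 0 h and 0 to 1 for Control 24 h minus 0 h. The median line difference was -0.083 at 0 h and 0.026 at 24 h after the median of all DHS was subtracted, and with quantile normalization -0.056, -0.032, -0.055 and -0.056 at 0, 12, 18 and 24 h. In the central 200 bp the share of members was 17.8% for the Ikaros core, 3.95% for ETS, 14.6% for PU.1-type, 27.1% for Runx, 16.6% for CAGCTG, 17.3% for CAGGTG, 12.8% for EBF, 2.48% for FOXO, 2.02% for the octamer, 7.66% for ETS-IRF, 7.02% for AP-1, 29.0% for the CTCF core and 6.32% for Sp, as a shorter window holds fewer matches.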
